A study of Homo sapiens with 12 samples.

Results

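The p53 target genes described here are 31 genes that the transcription factor p53 is known to switch on, chosen by symbol from a list of known targets and matched by Ensembl identifier in a table of 60669 genes. All 31 were found, and 30 passed the filter on low counts. The exception was SPATA18, a mitochondrial quality control gene, which had 1 count in 12 libraries, equal to 0.0813 CPM in LTR8B IFNB replicate 3. CPM throughout is counts per 1e+06 counts after TMM scaling of library size.

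p53 is held low by MDM2, a ubiquitin ligase that is itself a p53 target, and accumulates when DNA damage or other stress frees it. It then binds elements near its targets, which halt the cell cycle, drive apoptosis, repair DNA and adjust metabolism. Type I interferon signals instead through its cell surface receptor to factors that bind the interferon-stimulated response element (ISRE), and several apoptotic p53 targets are known to be interferon responsive in some cells.

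The cells were HT1080, an established human fibrosarcoma line, and every group carried stably expressed dCas9 for CRISPR interference and was kept in blasticidin and puromycin to select for dCas9 and for the guide. The guide was directed either at an LTR8B element, an endogenous retroviral long terminal repeat within SP140 (LTR8B cells), or at GFP as the control (GFP cells). Whether each line was a clone or a pool, and which promoter and repressor domain dCas9 carried, are not stated in the labels. The groups were LTR8B cells with interferon beta (IFNB, 10 U/mL for 4 h, n = 4), LTR8B cells left untreated (n = 4), GFP cells with IFNB (n = 2) and GFP cells left untreated (n = 2).

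Libraries held 12404270 to 28801579 counts, so that the 3 counts a count of 0 allows are 0.1 to 0.244 CPM. SP140, which holds the targeted element, was at 1.23 ± 0.288 CPM in LTR8B IFNB, 1.25 ± 0.57 CPM in LTR8B untreated, 30.9 ± 1.56 CPM in GFP IFNB and 30.3 ± 0.728 CPM in GFP untreated (SD). A check list of 12 interferon-stimulated genes rose for 11 of 11 tested members with IFNB in each line (edgeR adjusted p under the threshold of 0.05). Their median log2 fold change was 4.55 in LTR8B cells and 4.86 in GFP cells. Of all tested genes 4.01% were higher in LTR8B cells and 3.06% in GFP cells. The listed gene IRF7 had 1 count over the 12 libraries and was not tested. Of 8 fibroblast or mesenchymal markers, 6 were at or above 1 CPM in every library, while COL1A2 and THY1 were under 1 CPM. Of 6 haematopoietic markers, 5 were under 1 CPM in every library, among them HBB at 0. The remaining one, ITGAM, reached 1.06 CPM in LTR8B IFNB replicate 3 and was as low as 0.28 CPM in LTR8B IFNB replicate 2. Of 4 endothelial markers, 2 were under 1 CPM in every library and PECAM1 was at or above 1 CPM in every library. Of 6 epithelial markers, EPCAM, CDH1, KRT19 and CLDN4 were under 1 CPM in every library and KRT8 and KRT18 were above it. These are bulk RNA levels, in which fewer cells of a type and less RNA per cell cannot be told apart. No source says that the replicates came from separate cultures, so the p-values measure the spread between these samples, which may be technical.

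The start-site sequences of 6 p53 targets are shown first, because they hold the p53 and interferon motifs found in the searched windows and because PMAIP1, the member with the largest response, holds neither. They come from RefSeq (GRCh38.p14) and run 5′ to 3′ on the gene's strand, with 250 bases before and 50 after the transcription start. Windows were available for 26 of the 31 members, 37 windows in all. Capitals mark a p53 response element of 20 bases, a pair of adjacent decamers of the p53 consensus with at most 2 mismatches, in FAS, DDB2, MDM2 and AEN. In DDB2 the first capitals mark instead a gamma-activated site core, and in BBC3 the capitals mark a pair of overlapping ISRE cores.
FAS (chr10:88991181-88991480, plus strand): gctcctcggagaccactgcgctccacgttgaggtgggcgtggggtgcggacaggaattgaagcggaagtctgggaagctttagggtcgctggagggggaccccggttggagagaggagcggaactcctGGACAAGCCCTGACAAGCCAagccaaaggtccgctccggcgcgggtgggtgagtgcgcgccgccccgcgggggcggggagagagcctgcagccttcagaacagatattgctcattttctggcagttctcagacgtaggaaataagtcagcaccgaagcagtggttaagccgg
DDB2 (chr11:47214724-47215023, plus strand): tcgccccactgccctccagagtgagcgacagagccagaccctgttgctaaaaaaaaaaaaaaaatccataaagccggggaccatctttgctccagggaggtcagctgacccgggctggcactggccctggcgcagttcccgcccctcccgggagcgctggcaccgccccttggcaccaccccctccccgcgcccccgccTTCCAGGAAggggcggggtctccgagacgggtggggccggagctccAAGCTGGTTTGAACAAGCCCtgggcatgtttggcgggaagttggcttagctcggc
MDM2 (chr12:68808767-68809066, plus strand): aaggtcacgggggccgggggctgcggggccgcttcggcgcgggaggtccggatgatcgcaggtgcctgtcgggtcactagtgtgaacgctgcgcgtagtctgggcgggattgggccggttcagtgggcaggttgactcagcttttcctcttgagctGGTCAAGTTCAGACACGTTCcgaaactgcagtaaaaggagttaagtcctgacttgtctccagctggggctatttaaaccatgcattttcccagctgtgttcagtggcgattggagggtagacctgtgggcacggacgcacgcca
AEN (chr15:88621090-88621389, plus strand): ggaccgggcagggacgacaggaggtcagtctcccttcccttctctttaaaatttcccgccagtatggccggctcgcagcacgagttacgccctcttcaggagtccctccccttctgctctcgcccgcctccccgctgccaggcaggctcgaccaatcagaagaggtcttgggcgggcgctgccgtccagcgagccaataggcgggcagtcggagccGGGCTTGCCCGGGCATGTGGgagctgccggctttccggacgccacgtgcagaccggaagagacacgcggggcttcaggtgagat
PMAIP1 (chr18:59899746-59900045, plus strand): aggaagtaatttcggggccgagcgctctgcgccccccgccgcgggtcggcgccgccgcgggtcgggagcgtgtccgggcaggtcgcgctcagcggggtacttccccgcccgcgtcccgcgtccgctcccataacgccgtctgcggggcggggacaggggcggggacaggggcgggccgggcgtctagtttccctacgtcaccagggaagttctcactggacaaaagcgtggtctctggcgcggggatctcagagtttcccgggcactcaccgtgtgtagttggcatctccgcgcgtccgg
BBC3 (chr19:47232618-47232917, minus strand): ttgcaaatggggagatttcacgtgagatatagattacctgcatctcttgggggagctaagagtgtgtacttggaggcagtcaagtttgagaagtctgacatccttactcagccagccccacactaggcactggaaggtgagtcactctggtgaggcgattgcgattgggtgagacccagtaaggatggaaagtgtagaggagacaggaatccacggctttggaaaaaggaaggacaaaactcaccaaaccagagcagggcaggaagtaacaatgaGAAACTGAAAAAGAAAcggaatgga

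The p53 element was present in 5 of 37 member windows (13.5%), of which a pair are overlapping windows of MDM2, against 100 of 35116 windows of all genes (0.285%). It is its own reverse complement, so both strands were read at once. The MDM2 element, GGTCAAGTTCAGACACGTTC, and the FAS element, GGACAAGCCCTGACAAGCCA, each had 2 mismatches to the consensus, as had that of AEN, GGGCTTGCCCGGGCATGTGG. The DDB2 stretch matched, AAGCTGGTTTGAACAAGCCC, had 1 mismatch and spanned the start site. Decamers with bases between them were not searched, so spaced p53 elements in these windows, that of DDB2 included, would be missed. The members were listed as known p53 targets, so these shares describe the windows and are not a separate finding.

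The ISRE core was read as GAAA, any 2 bases and a further GAAA, and the gamma-activated site core, a further interferon-linked motif, as TTCNNNGAA, both on either strand. The ISRE core lay in 1 of 37 member windows (2.7%), against 3.57% of all windows and 7 of 12 windows (58.3%) of the interferon check list. That window was BBC3, where GAAACTGAAA at 26 to 35 bases after the start overlaps GAAAAAGAAA at 32 to 41 bases after it. The gamma-activated site core lay in 1 member window (2.7%), that of DDB2, against 7.66% of all windows and 33.3% of those of the check list. A match is a run of letters and not a measured binding site, and elements outside these windows were not searched.

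With IFNB, 5 of 30 p53 targets changed when the response was averaged over LTR8B and GFP cells (edgeR quasi-likelihood test, Benjamini-Hochberg adjusted p under 0.05 over 16393 genes). PMAIP1, BBC3, FAS and GDF15 rose and PLK2 fell. That is 16.7% of the members, where 6.29% of all tested genes passed the same threshold, 5.28% higher and 1.01% lower. The other 25 members did not pass, among them CDKN1A, the standard reporter of p53 activity, and MDM2. The members' median log2 fold change was 0.02, against -0.01 over all tested genes, with 17 members above 0 and 13 below. In 22 of the 30 the averaged change was under 0.2 in size on the log2 scale. DESeq2 called the same 5 genes. In 5 members (PMAIP1, FAS, GDF15, PLK2 and POLH) the treated and untreated libraries did not overlap in either line, 16.7% of the members against 6.61% of all tested genes.

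In LTR8B cells alone 3 members rose (BBC3, GDF15 and PMAIP1, 10% of the members, against 4.5% of all genes, 4.01% higher), and in GFP cells alone 1 rose (PMAIP1, 3.33%, against 3.2% of all genes, 3.06% higher). The GFP arms have 2 libraries each and the LTR8B arms 4, and the tests differ in precision for that reason. The difference between the responses of the lines was tested on its own and passed for 0 of 30 members, as for 0% of all genes, by edgeR and by DESeq2. None of the 30 members was under an unadjusted p of 0.05 there, where 2.98% of all genes were.

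**Figure D1:**
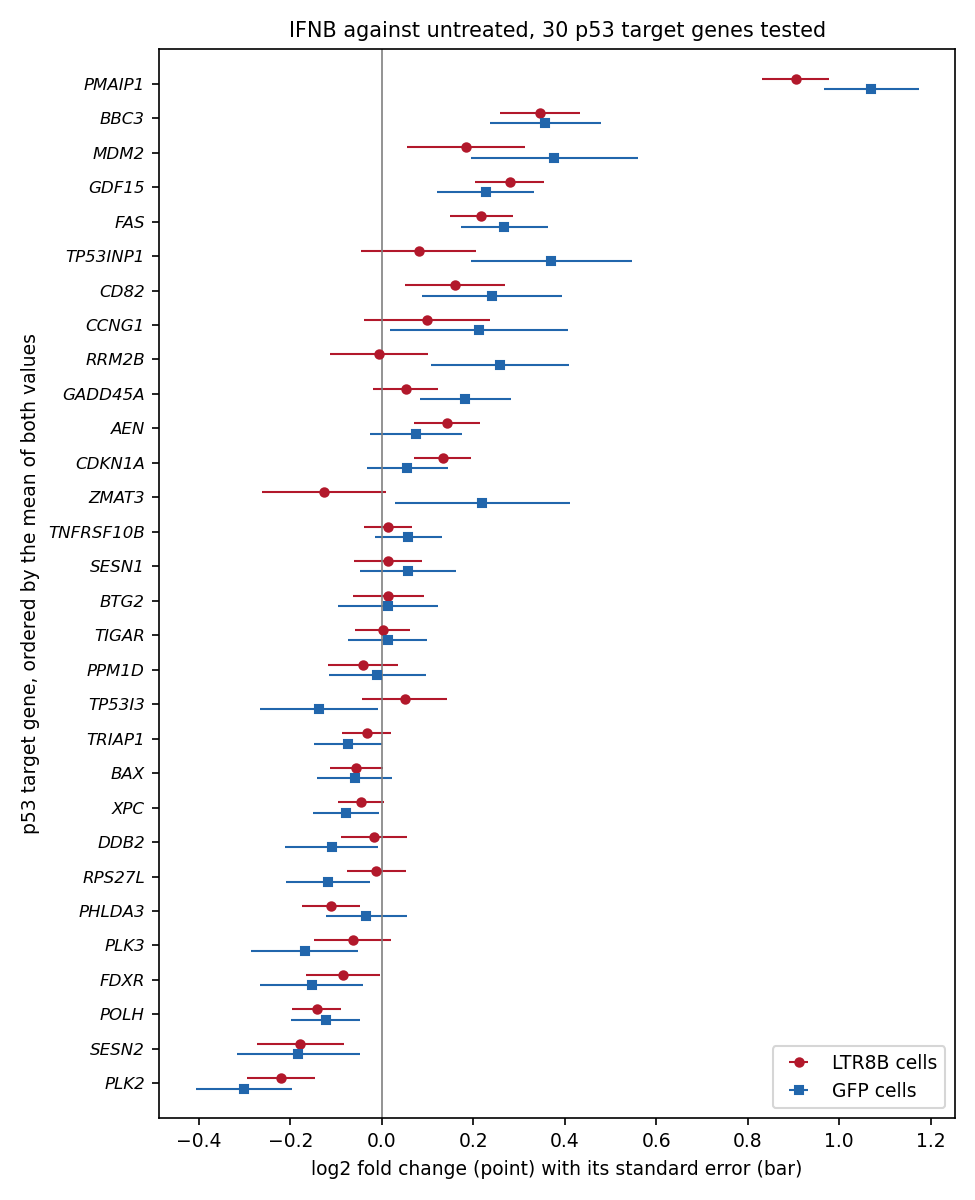
Log2 fold change of IFNB over untreated for the 30 tested p53 target genes (x axis, with bars of 1 standard error), in LTR8B cells (red circles) and GFP cells (blue squares), ordered down the page by the mean of both. PMAIP1 stands apart at 0.91 in LTR8B cells and 1.07 in GFP cells, and most members lie within 0.2 of 0.

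The members grouped under intrinsic apoptosis had 2 of 7 tested genes higher with IFNB and none lower, where 5.28% of all genes were higher and 1.01% lower. PMAIP1 encodes NOXA, a BH3-only protein that binds MCL1 (ENSG00000141682.12, chromosome 18, 59899948 to 59904306, plus strand, hg38). PMAIP1 was at 111, 99.99, 97.4 and 105 CPM in the 4 LTR8B IFNB libraries, against 56.1, 49.3, 62.8 and 52.3 CPM in LTR8B untreated. It was at 108 and 117 CPM in GFP IFNB, against 51.1 and 55.9 CPM in GFP untreated. Every treated library lay above every untreated one in both lines, and the treated means were 1.88 times the untreated mean in LTR8B cells and 2.10 times in GFP cells. The log2 fold change of PMAIP1 was 0.91 (edgeR adjusted p = 8.71e-08, SE 0.07) in LTR8B cells and 1.07 (edgeR adjusted p = 1.3e-06, SE 0.10) in GFP cells. The difference of these responses was -0.16 (edgeR adjusted p = 0.996, SE 0.13). PMAIP1 passed in each line without any 1 of the 12 libraries. Its window printed above holds no ISRE core, gamma-activated site core or p53 element of adjacent decamers.

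BBC3 encodes PUMA, a BH3-only protein that binds all anti-apoptotic BCL2 relatives (ENSG00000105327.18, chromosome 19, 47220822 to 47232766, minus strand). BBC3 was at 56.1, 57.5, 59.0 and 42.7 CPM in LTR8B IFNB, against 43.2, 43.6, 43.8 and 38.4 CPM in LTR8B untreated. It was at 63.1 and 62.1 CPM in GFP IFNB, against 46.6 and 51.2 CPM in GFP untreated. In both LTR8B groups replicate 4 was the lowest, and LTR8B IFNB replicate 4 lay within the untreated range. The GFP groups of BBC3 did not overlap, as was so in either direction for 18 of 30 members in GFP cells. The share over all tested genes was not counted there, so that number is not shown to be particular to the p53 targets. The averaged log2 fold change was 0.35 (edgeR adjusted p = 0.00552, SE 0.07), with 0.35 (edgeR adjusted p = 0.0279, SE 0.09) in LTR8B cells and 0.36 (edgeR adjusted p = 0.184, SE 0.12) in GFP cells. The averaged call was lost without GFP untreated replicate 1 (edgeR adjusted p = 0.0561). The call in LTR8B cells was lost without LTR8B IFNB replicate 1, 2 or 3 (edgeR adjusted p = 0.103, 0.114 and 0.114) and without LTR8B untreated replicate 1 or 4 (0.0641 and 0.0961).

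The other 5 apoptosis genes tested did not pass with IFNB. BAX, the pore-forming effector, was at 147 ± 4.83 CPM in LTR8B IFNB and 152 ± 11.8 CPM in LTR8B untreated, and at 148 ± 5.39 CPM in GFP IFNB and 155 ± 1.35 CPM in GFP untreated (SD). AEN, an apoptosis-enhancing nuclease, was at 139 ± 9.63 and 126 ± 13.3 CPM in LTR8B IFNB and untreated, and at 146 ± 9.18 and 139 ± 1.37 CPM in GFP IFNB and untreated. PHLDA3, an inhibitor of AKT, was at 84.7 ± 3.87 and 91.5 ± 7.1 CPM in LTR8B IFNB and untreated, and at 91 ± 4.8 and 93.1 ± 4.52 CPM in GFP IFNB and untreated. None of these 3 genes passed in either line. TP53I3, an oxidoreductase linked to oxidative stress, and TP53INP1, which acts in apoptosis and autophagy, are given with the guide effect and with the spread between replicates.

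Of the death receptors, FAS rose and TNFRSF10B, the TRAIL receptor DR5, did not pass, at 331 ± 17.1 and 328 ± 13.1 CPM in LTR8B IFNB and untreated and 346 ± 6.24 and 332 ± 9.14 CPM in GFP IFNB and untreated (SD). FAS, the receptor of FAS ligand (ENSG00000026103.22, chromosome 10, 88990582 to 89015785, plus strand), was at 81.0, 75.5, 81.6 and 79.9 CPM in LTR8B IFNB, against 73.7, 60.00, 73.4 and 65.9 CPM in LTR8B untreated. FAS was at 74.9 and 83.5 CPM in GFP IFNB, against 65.5 and 66.1 CPM in GFP untreated. The groups did not overlap in either line. FAS had an averaged log2 fold change of 0.24 (edgeR adjusted p = 0.0148, SE 0.06). Within a line FAS did not pass, at 0.22 (edgeR adjusted p = 0.096, SE 0.07) in LTR8B cells and 0.27 (edgeR adjusted p = 0.222, SE 0.10) in GFP cells. The averaged call was lost without GFP IFNB replicate 2 (edgeR adjusted p = 0.119) or GFP untreated replicate 1 or 2 (0.0831 and 0.0717). FAS overlaps ACTA2 on the opposite strand over 758 bases, and the strand setting of the counting is not given.

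GDF15, a secreted stress cytokine of the TGF-beta superfamily (ENSG00000130513.6, chromosome 19, 18374731 to 18389176, plus strand), rose with IFNB. GDF15 was at 469, 423, 457 and 402 CPM in LTR8B IFNB, against 357, 398, 319 and 369 CPM in LTR8B untreated. It was at 452 and 432 CPM in GFP IFNB, against 340.4 and 415 CPM in GFP untreated. The groups did not overlap in either line, although the lowest treated and highest untreated libraries of LTR8B cells were 402 and 398 CPM. The averaged log2 fold change was 0.25 (edgeR adjusted p = 0.0232, SE 0.06), with 0.28 (edgeR adjusted p = 0.0408, SE 0.07) in LTR8B cells and 0.23 (edgeR adjusted p = 0.433, SE 0.11) in GFP cells. The averaged call was lost without GFP untreated replicate 1, GFP IFNB replicate 1, or LTR8B IFNB replicate 1 or 3 (edgeR adjusted p = 0.198, 0.0977, 0.0564 and 0.0505). The call in LTR8B cells was lost without GFP IFNB replicate 1 (edgeR adjusted p = 0.0536), without LTR8B untreated replicate 1, 3 or 4 (0.12, 0.116 and 0.0725) and without LTR8B IFNB replicate 1, 2 or 3 (0.177, 0.0757 and 0.134).

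PLK2, a polo-like kinase of the stress and cell cycle response, was the member that fell (ENSG00000145632.15, chromosome 5, 58453982 to 58460260, minus strand). PLK2 was at 277, 238, 258 and 273 CPM in LTR8B IFNB, against 321, 285, 298 and 314 CPM in LTR8B untreated. It was at 211 and 244 CPM in GFP IFNB, against 249 and 313 CPM in GFP untreated. The treated libraries lay below the untreated ones without overlap in both lines. PLK2 had an averaged log2 fold change of -0.26 (edgeR adjusted p = 0.0181, SE 0.06), with -0.22 (edgeR adjusted p = 0.142, SE 0.07) in LTR8B cells and -0.30 (edgeR adjusted p = 0.207, SE 0.11) in GFP cells. The averaged call was lost without GFP untreated replicate 2 (edgeR adjusted p = 0.198) or GFP IFNB replicate 1 (0.11).

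**Figure D2:**
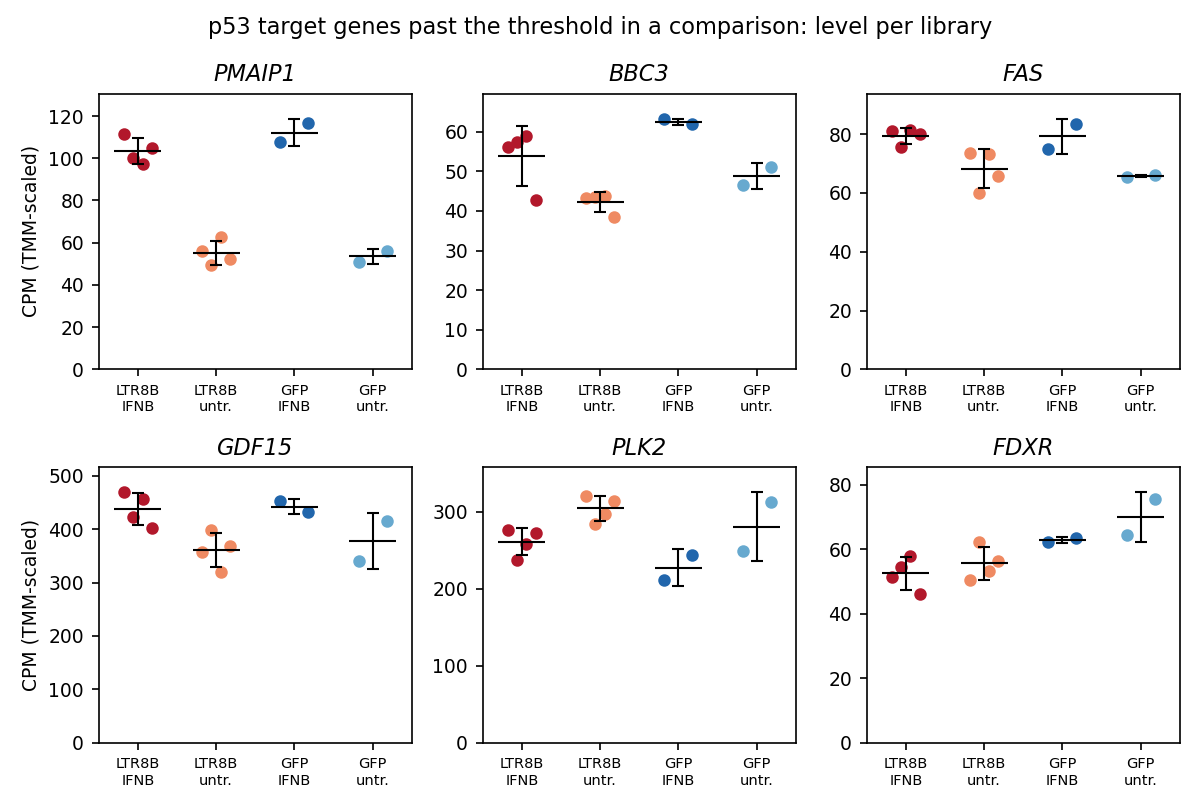
Level in CPM (y axis, from 0) of the 6 p53 target genes that passed the threshold in a comparison, with 1 point per library, a horizontal bar at the group mean and an error bar of 1 SD, for LTR8B IFNB (n = 4), LTR8B untreated (n = 4), GFP IFNB (n = 2) and GFP untreated (n = 2). PMAIP1 separates treated from untreated libraries by the widest margin, and FDXR is lower in the LTR8B groups than in the GFP groups.

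The arrest genes other than PLK2 did not pass with IFNB. CDKN1A encodes p21, the inhibitor of cyclin-dependent kinases (ENSG00000124762.14, chromosome 6, 36676460 to 36687339, plus strand). CDKN1A was at 317, 328, 338 and 306 CPM in LTR8B IFNB, against 276, 322, 269 and 309 CPM in LTR8B untreated. It was at 302 and 297 CPM in GFP IFNB, against 275 and 302 CPM in GFP untreated. The groups overlapped in both lines, and the averaged log2 fold change was 0.09 (edgeR adjusted p = 0.422, SE 0.05), with 0.13 (SE 0.06) in LTR8B cells and 0.06 (SE 0.09) in GFP cells. BTG2, an antiproliferative cofactor of mRNA decay, was at 33.8 ± 3.67 and 33.6 ± 1.73 CPM in LTR8B IFNB and untreated, and at 31.7 ± 1.5 and 31.5 ± 1.06 CPM in GFP IFNB and untreated (SD). GADD45A, a damage-inducible stress sensor, was at 109 ± 6.46 and 105 ± 8.04 CPM in LTR8B IFNB and untreated, and at 113 ± 1.82 and 99.8 ± 14.1 CPM in GFP IFNB and untreated. PLK3, a polo-like kinase, was at 30.8 ± 2.38 and 32.3 ± 3.34 CPM in LTR8B IFNB and untreated, and at 29.9 ± 0.417 and 33.7 ± 3.53 CPM in GFP IFNB and untreated. None of these 4 genes passed in either line.

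Of the negative feedback genes, MDM2 (ENSG00000135679.25, chromosome 12, 68808176 to 68850686, plus strand) was at 429, 374, 447 and 467 CPM in LTR8B IFNB, against 378, 315, 439.8 and 378 CPM in LTR8B untreated. It was at 402 and 572 CPM in GFP IFNB, against 333 and 417 CPM in GFP untreated. The groups overlapped in both lines. The averaged log2 fold change of MDM2 was 0.28 (edgeR adjusted p = 0.219, SE 0.11), larger in size than that of FAS or GDF15 but with a wider error, and MDM2 did not pass. Without the low-count filter it passed at 0.27 (edgeR adjusted p = 0.00501). With a replicate block MDM2 passed in LTR8B cells, in GFP cells and averaged, although the replicate numbers were not taken as pairs. Without GFP IFNB replicate 1 it passed at 0.39 (edgeR adjusted p = 0.0333), and without GFP IFNB replicate 2 it was at 0.14 (edgeR adjusted p = 0.705). A processed pseudogene lies within MDM2 on the same strand and had 4188 counts over the 12 libraries, against 103086 for MDM2, so reads may be split between them. PPM1D, the phosphatase WIP1, was at 29.9 ± 1.26 and 30.7 ± 1.12 CPM in LTR8B IFNB and untreated, and at 31.6 ± 4.9 and 31.9 ± 2.96 CPM in GFP IFNB and untreated (SD).

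The DNA repair genes had 0 of 4 members past the threshold with IFNB, where 6.29% of all tested genes passed in the averaged comparison. With so few members, this count does not set the group apart. POLH, the translesion polymerase eta, was at 90.5 ± 3.37 CPM in LTR8B IFNB and 99.8 ± 2.17 CPM in LTR8B untreated, and at 90.4 ± 7.1 CPM in GFP IFNB and 98.4 ± 3.4 CPM in GFP untreated (SD). Its averaged log2 fold change was -0.13 (edgeR adjusted p = 0.126, SE 0.05), and the treated libraries did not overlap the untreated ones in either line. XPC and DDB2, damage recognition factors of nucleotide excision repair, had means of 96.4 and 115 CPM in LTR8B IFNB, 99.6 and 116 CPM in LTR8B untreated, 94.8 and 125 CPM in GFP IFNB, and 100.1 and 135 CPM in GFP untreated. RRM2B, the p53-inducible ribonucleotide reductase subunit, is given with the spread between replicates.

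The metabolic and antioxidant genes also had 0 of 4 tested members past the threshold with IFNB. In the averaged comparison 6.29% of all tested genes passed, so 0 of 4 does not set this group apart. SESN2, a stress-inducible inhibitor of mTORC1, was at 76 ± 3.56 and 86.2 ± 14.7 CPM in LTR8B IFNB and untreated, and at 74 ± 1.4 and 84 ± 6.29 CPM in GFP IFNB and untreated (SD), with an averaged log2 fold change of -0.18 (edgeR adjusted p = 0.282, SE 0.08). Its relative SESN1 was at 78.9 ± 4.97 and 78 ± 6.79 CPM in LTR8B IFNB and untreated, and at 87 ± 9.99 and 83.6 ± 6.48 CPM in GFP IFNB and untreated. TIGAR, a fructose bisphosphatase that lowers glycolysis, was at 61.2 ± 2.78 and 61.2 ± 3.95 CPM in LTR8B IFNB and untreated, and at 58.4 ± 2.32 and 57.9 ± 1.24 CPM in GFP IFNB and untreated. SESN1 and TIGAR thus had treated and untreated means within 1 SD in both lines.

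The pro-survival genes TRIAP1, an inhibitor of apoptosome formation, and RPS27L, a ribosomal protein S27 paralog, did not pass either. TRIAP1 was at 80.4 ± 3.6 and 82.2 ± 3.24 CPM in LTR8B IFNB and untreated, and at 79.9 ± 0.209 and 84.1 ± 0.183 CPM in GFP IFNB and untreated (SD). RPS27L was at 218 ± 18.3 and 219 ± 15.1 CPM in LTR8B IFNB and untreated, and at 225 ± 6.35 and 244 ± 5.71 CPM in GFP IFNB and untreated. RPS27L overlaps LACTB on the opposite strand, and RPS27 is a close paralog. CD82, a tetraspanin of the cell surface, was at 61.8 ± 8.64 and 55.1 ± 6.33 CPM in LTR8B IFNB and untreated, and at 73 ± 7.99 and 61.8 ± 9.05 CPM in GFP IFNB and untreated. Its averaged log2 fold change was 0.20 (edgeR adjusted p = 0.305, SE 0.09).

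Few p53 targets passed the threshold between the LTR8B and GFP guides. Averaged over treatments, 1 of 30 members passed, FDXR, which was lower (3.33% of the members, against 2.14% of all tested genes, 0.994% lower), and 6 members were under an unadjusted p of 0.05, as were 15.8% of all genes. In untreated cells 0 of 30 passed by edgeR and by DESeq2 (0.36% of all genes by edgeR), with 3 members and 11.2% of all genes under an unadjusted p of 0.05. With IFNB 0 of 30 passed by both tools (0.354% of all genes by edgeR), with 2 members and 9.48% of all genes under an unadjusted p of 0.05. The members' median log2 fold change averaged over treatments was -0.04, against 0.00 over all genes, with 9 members above 0 and 21 below, and 26 of 30 were under 0.2 in size. The LTR8B and GFP libraries did not overlap in either treatment, in 1 direction, for FDXR and BBC3 alone, 2 of 30 members, against 5.6% of all genes. The guide effects in untreated and in treated cells share no library. They do compare the same LTR8B and GFP cells in one fit, so the guide cannot be told apart from other differences between the lines.

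FDXR encodes ferredoxin reductase, which passes electrons to mitochondrial cytochrome P450 enzymes and iron-sulfur cluster assembly (ENSG00000161513.12, chromosome 17, 74862497 to 74873031, minus strand). FDXR was at 51.5, 54.6, 57.9 and 46.1 CPM in LTR8B IFNB, against 62.3 and 63.6 CPM in GFP IFNB. It was at 50.5, 62.4, 53.3 and 56.5 CPM in LTR8B untreated, against 64.5 and 75.5 CPM in GFP untreated. All 8 LTR8B libraries lay below both GFP libraries of their treatment. The averaged log2 fold change was -0.30 (edgeR adjusted p = 0.0301, SE 0.07), with -0.26 (edgeR adjusted p = 0.4, SE 0.10) under IFNB and -0.33 (edgeR adjusted p = 0.202, SE 0.10) in untreated cells. The averaged call of FDXR was lost without GFP untreated replicate 2 (edgeR adjusted p = 0.282), GFP IFNB replicate 1 or 2 (0.0876 and 0.113), LTR8B untreated replicate 1 or 4 (0.058 and 0.0521) and LTR8B IFNB replicate 1 or 2 (0.0614 and 0.0517).

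**Figure D3:**
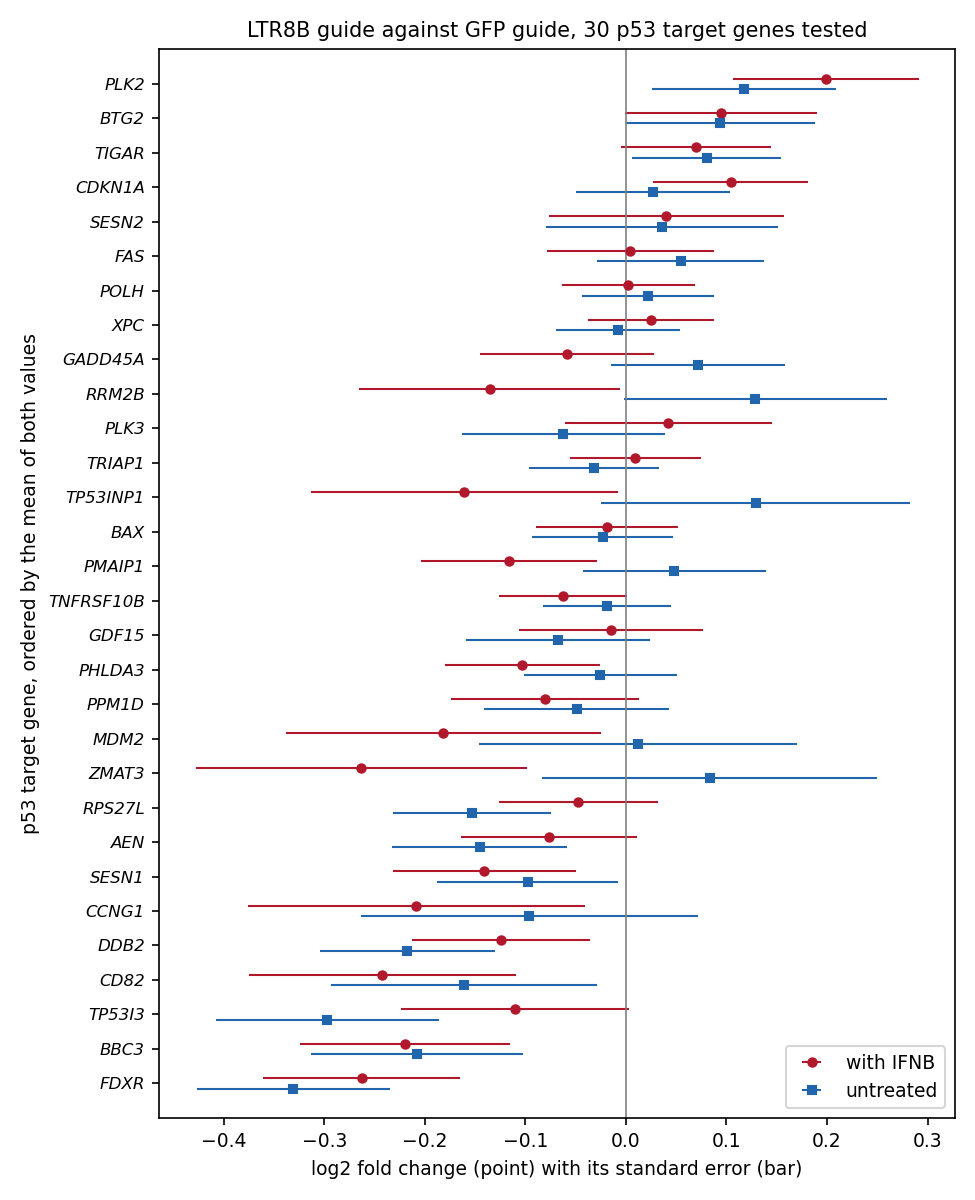
Log2 fold change of the LTR8B guide over the GFP guide for the 30 tested p53 target genes (x axis, with bars of 1 standard error), with IFNB (red circles) and untreated (blue squares), ordered down the page by the mean of both. FDXR has the lowest mean of both, at -0.26 with IFNB and -0.33 untreated, and the largest value above 0 is 0.20, for PLK2 with IFNB.

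BBC3 was next to FDXR, with a guide effect of -0.22 under IFNB and -0.21 in untreated cells on the log2 scale. The LTR8B libraries of BBC3 lay below both GFP libraries in each treatment, and the averaged change of -0.21 (SE 0.07) did not pass (edgeR adjusted p = 0.159). TP53I3 was at 39.0, 35.0, 43.0 and 32.0 CPM in LTR8B IFNB, against 36.8 and 43.4 CPM in GFP IFNB. It was at 34.7, 37.8, 37.3 and 33.5 CPM in LTR8B untreated, against 39.8 and 48.4 CPM in GFP untreated, where the groups did not overlap. The guide effect of TP53I3 in untreated cells was -0.30 (edgeR adjusted p = 0.323, SE 0.11) and the averaged one -0.20 (edgeR adjusted p = 0.215). DDB2 was at -0.17 averaged (edgeR adjusted p = 0.179, SE 0.06) and CD82 at -0.20 (edgeR adjusted p = 0.313, SE 0.09).

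The best-known p53 reporters did not pass between the guides. CDKN1A averaged 322 ± 13.8 CPM in LTR8B IFNB and 299.8 ± 3.33 CPM in GFP IFNB, and 294 ± 25.8 CPM in LTR8B untreated and 288 ± 19.2 CPM in GFP untreated (SD). With IFNB every LTR8B library of CDKN1A lay above both GFP libraries, while the untreated groups overlapped. The guide effect of CDKN1A was 0.10 with IFNB (edgeR adjusted p = 0.727, SE 0.08) and 0.07 averaged (edgeR adjusted p = 0.606, SE 0.05). MDM2 averaged 429 ± 40.1 CPM in LTR8B IFNB and 487 ± 120.0 CPM in GFP IFNB, and 378 ± 51.1 CPM in LTR8B untreated and 375 ± 59.1 CPM in GFP untreated, with an averaged guide effect of -0.08 (edgeR adjusted p = 0.774, SE 0.11). GDF15 averaged 438 ± 30.7 CPM in LTR8B IFNB and 442 ± 14.5 CPM in GFP IFNB, and 361 ± 32.5 CPM in LTR8B untreated and 378 ± 53.1 CPM in GFP untreated. A p above the threshold does not show that the lines are alike, and with 2 GFP libraries per treatment the standard errors of single members ran up to 0.17 on the log2 scale in a single-treatment guide comparison.

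The spread between replicates of the same group is described with 5 members that were chosen for it after their values were seen: MDM2, ZMAT3, CCNG1, RRM2B and TP53INP1. Over all 30 members, GFP untreated replicate 2 was above replicate 1 for 27 and GFP IFNB replicate 2 above replicate 1 for 20. The order within the GFP groups was thus shared by most members. The share over all tested genes was not counted, so this order is not shown to be particular to the p53 targets. In LTR8B untreated, replicate 3 was the highest library for 11 of 30 members and replicate 2 the lowest for 11. Replicate 2 was the highest there for 10 members and replicate 3 the lowest for 8, so the members as a whole shared no such order. ZMAT3, an RNA-binding regulator of splicing, was at 317, 282, 338 and 332 CPM in LTR8B IFNB and at 356, 295, 419 and 315 CPM in LTR8B untreated. It was at 305 and 457 CPM in GFP IFNB and at 304 and 350.1 CPM in GFP untreated. GFP IFNB replicate 2 was thus the highest library and LTR8B IFNB replicate 2 the lowest. CCNG1, cyclin G1, which recruits a phosphatase to MDM2, was at 252, 207, 253 and 238 CPM in LTR8B IFNB and at 244, 172, 263 and 208 CPM in LTR8B untreated. It was at 233 and 316 CPM in GFP IFNB and at 217 and 257 CPM in GFP untreated.

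RRM2B was at 116, 98.9, 121 and 127 CPM in LTR8B IFNB and at 123, 92.8, 129 and 119.7 CPM in LTR8B untreated. It was at 113 and 141 CPM in GFP IFNB and at 101 and 111 CPM in GFP untreated. The highest and lowest libraries of LTR8B untreated were again replicates 3 and 2. TP53INP1 was at 41.5, 40.4, 48.4 and 50.5 CPM in LTR8B IFNB and at 39.6, 35.8, 51.5 and 43.0 CPM in LTR8B untreated. It was at 42.1 and 58.7 CPM in GFP IFNB and at 36.3 and 41.7 CPM in GFP untreated, and it overlaps NDUFAF6 on the opposite strand.

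In LTR8B untreated, replicate 3 was the highest and replicate 2 the lowest for all 5 genes, and in LTR8B IFNB replicate 2 was the lowest for all 5. In GFP IFNB, replicate 2 was above replicate 1 by 0.51 for MDM2, 0.58 for ZMAT3, 0.44 for CCNG1, 0.32 for RRM2B and 0.48 for TP53INP1 on the log2 scale. GFP untreated replicate 2 was also above replicate 1 for each, by 0.14 to 0.32 on that scale. PMAIP1 had the same highest and lowest library in LTR8B untreated, and CDKN1A had the opposite one, with replicate 2 the highest and replicate 3 the lowest. Over all 30 members the median coefficient of variation was 6.87% in LTR8B IFNB, 8.74% in LTR8B untreated, 5% in GFP IFNB and 7.11% in GFP untreated, against 8.93%, 10.5%, 8.41% and 5.8% over all tested genes.

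**Figure D4:**
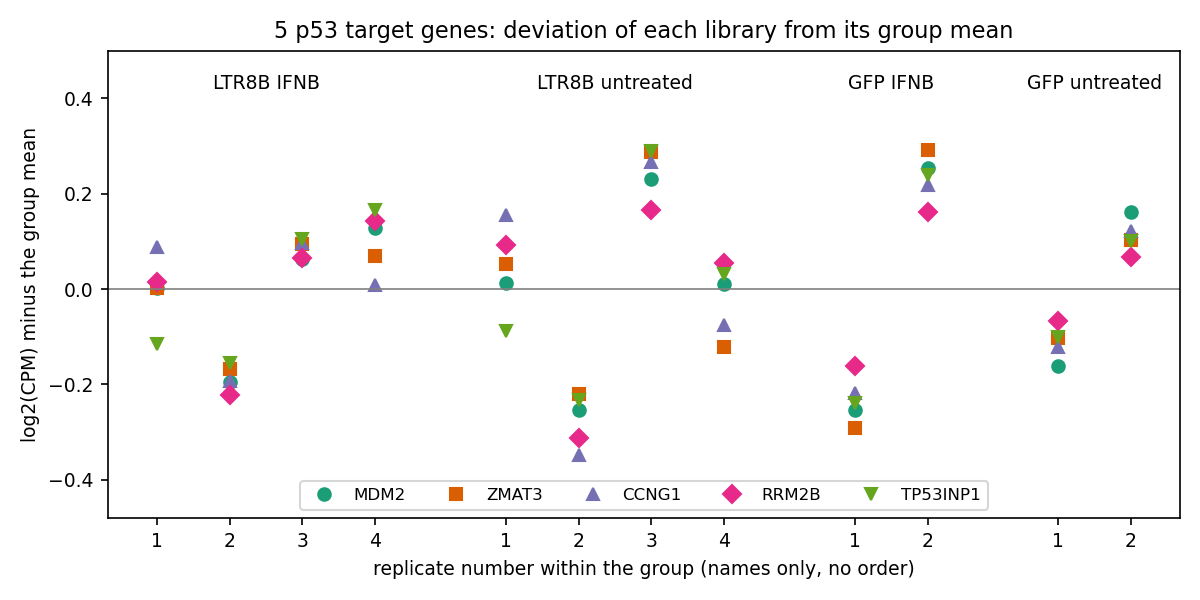
Deviation of each library's log2(CPM) from its group mean (y axis) for MDM2, ZMAT3, CCNG1, RRM2B and TP53INP1, by replicate number within LTR8B IFNB, LTR8B untreated, GFP IFNB and GFP untreated (x axis, where numbers are names and carry no order). The 5 genes lie on the same side of 0 in both libraries of each GFP group and in replicates 2 and 3 of each LTR8B group.

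The difference between the IFNB responses of the lines was -0.35 for ZMAT3 (SE 0.23), -0.29 for TP53INP1 (SE 0.22) and -0.26 for RRM2B (SE 0.18), each with an edgeR adjusted p of 0.996. Among the 30 members ZMAT3 and TP53INP1 had the largest such differences in size, and ZMAT3 and RRM2B the smallest p. The guide effect of ZMAT3 with IFNB was -0.26 (edgeR adjusted p = 0.68, SE 0.16), and it was 0.06 without GFP IFNB replicate 2. That of MDM2 with IFNB was -0.18 (edgeR adjusted p = 0.775), and it was 0.10 without the same library.

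Upstream of the targets, 18 of 20 listed p53 regulators were tested. With IFNB only PML, the scaffold of nuclear bodies and a known interferon-stimulated gene, passed (5.56% of these, against 6.29% of all genes in the averaged comparison). PML was at 223, 221, 216 and 191 CPM in LTR8B IFNB, against 51.6 ± 5.57 CPM in LTR8B untreated (SD, n = 4), and at 223 ± 17.3 CPM in GFP IFNB, against 51.8 ± 4.83 CPM in GFP untreated (SD, n = 2 each). PML had an averaged log2 fold change of 2.08 (edgeR adjusted p = 1.41e-13, SE 0.07). CDKN2A, whose ARF product inhibits MDM2, had 0 counts in all 12 libraries. In the guide comparisons 0 of 18 regulators passed by edgeR, and 0 by DESeq2. Of all genes 0.36% passed by edgeR untreated, 0.354% with IFNB and 2.14% averaged, so 0 of 18 does not set the regulators apart. In the averaged comparison 3 of 18 were under an unadjusted p of 0.05, as were 15.8% of all genes.

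Of 39 further p53 targets from a second list, 32 were tested, and 4 passed with IFNB in the averaged comparison (12.5%, against 6.29% of all genes). TRIM22, an antiviral ubiquitin ligase that interferon also induces, rose by 2.58 on the log2 scale (edgeR adjusted p = 5.76e-07, SE 0.15). TSKU, a secreted leucine-rich proteoglycan, rose by 0.62 (edgeR adjusted p = 8.28e-06, SE 0.07), and SERTAD1, a cofactor of E2F and CDK4, rose by 0.59 (edgeR adjusted p = 0.000319, SE 0.09). IER3, an immediate early stress gene, fell by 0.25 (edgeR adjusted p = 0.000518, SE 0.04). All 4 also passed in LTR8B cells alone, and in GFP cells alone TRIM22, TSKU and IER3 passed while SERTAD1 did not (edgeR adjusted p = 0.0576), although DESeq2 called all 4 there. In the averaged guide comparison 0 genes of the second list passed by edgeR and by DESeq2 (2.14% of all genes by edgeR), with 7 of 32 under an unadjusted p of 0.05, as were 15.8% of all genes.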

How the data were processed

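Polyadenylated RNA of 12 HT1080 libraries was sequenced by the authors, and the starting point was the count table they deposited, with a whole number per gene and library. Per the submitters' processing notes, Salmon 0.13.1, DESeq2 1.38.3 and hg38 were used, and the role of each, like the strand setting, is not given in the sources used here. Their normalized table was not used.

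Genes were kept by filterByExpr (minimum count 10, minimum total 15), which left 16393. Libraries were scaled by TMM, and an edgeR 4.0.16 quasi-likelihood model (robust) in R 4.3.3 took in all 12 libraries, each group having its own mean. Adjusted p is the Benjamini-Hochberg value over all tested genes, at 0.05, and SE is the fitted standard error of a log2 difference. Tests compared the guides untreated, with IFNB and averaged, IFNB with untreated in each line and averaged, and their interaction. Averaged comparisons weight both lines or both treatments equally and share libraries with the single ones.

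Alternatives were RLE scaling, no low-count filter, DESeq2 1.42.0, a replicate block and leaving out each library. The fit was tested on simulated data. Members, the lists of p53 regulators, further p53 targets, interferon-stimulated genes and cell type markers, and the rules were chosen with earlier results of these data known. Values per library are given for members past the threshold, for CDKN1A, MDM2 and GDF15, and for the 2 largest and 2 smallest in p per comparison. No pair of replicates was a duplicate (chi-square per degree of freedom 2.74 to 17.4). Adapters were single or dual index, not tied to libraries in the labels, so no library batch was tested. Limits from counts cover counting error only. Gene positions are from GENCODE release 29 on hg38, and Python 3.11.15 with pandas 2.3.3 and matplotlib 3.10.9 was used for summaries.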

Additional observations from a re-analysis of the deposited data

Results flagged for a closer look

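Single libraries stood apart from the other 3 of their group, by a gap test at the 95% level, in 3 of 60 member and group pairs, and chance flags about 1 in 20. PLK3 in LTR8B IFNB replicate 1 was at 34.3 CPM, with the others at 29.2 to 29.9 CPM. BBC3 in LTR8B untreated replicate 4 was at 38.4 CPM, with the others at 43.2 to 43.8 CPM. RPS27L in LTR8B untreated replicate 4 was at 197 CPM, with the others at 226 to 227 CPM.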

How the results depend on the processing

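RLE scaling and DESeq2 kept the count of members past the threshold in all 7 comparisons. Without the low-count filter it became 1 (FDXR) for the guide effect in untreated cells, 2 for the averaged guide effect (BBC3 and FDXR), 2 for IFNB in GFP cells and 8 for the averaged IFNB response. The samples share only replicate numbers, and in LTR8B cells same-numbered libraries deviated together with r of 0.0794 to 0.288, so the numbers were not taken as pairs, although 7 of 8 LTR8B libraries correlated best with their own number. In GFP cells r was 0.146. With the replicate block the counts were 0 for the averaged guide effect, where FDXR had an edgeR adjusted p of 0.095, 5 for IFNB in LTR8B cells, 5 for IFNB in GFP cells and 9 for the averaged IFNB response, with MDM2 added in each of these 3. Under the block the guide effect of GDF15 was 0.033 with IFNB and 0.0067 averaged, and that of MDM2 untreated was -0.092.

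Leaving out each library gave counts of 0 to 1 for the averaged guide effect, 1 to 3 for IFNB in LTR8B cells, 1 to 2 in GFP cells and 2 to 5 averaged. The members' median log2 fold change ran from -0.0595 to 0.0449 for the guide effect untreated and from -0.0885 to 0.0219 with IFNB. Uncalled values changed sign in 17 of these 396 fits. CDKN1A ran from -0.0105 to 0.12 for IFNB in GFP cells and from -0.041 to 0.0945 for the guide untreated. GDF15 ran from -0.048 to 0.027 for the guide with IFNB, -0.11 to 0.0355 averaged, -0.21 to 0.081 untreated and -0.091 to 0.19 for the interaction. MDM2 ran from -0.41 to 0.097 for the guide with IFNB, -0.20 to 0.054 averaged, -0.14 to 0.18 untreated and -0.43 to 0.086 for the interaction. ZMAT3 ran from -0.52 to 0.059 for the guide with IFNB. The cause of these changes was not tested. PMAIP1 ran from 0.96 to 1.02 for the averaged IFNB response. Of 120 such fits of called members, 91 kept the call and direction and 29 lost the call, none with a change of sign, and under the other alternatives 2 of 40 lost it. With 2 libraries per GFP group, leaving one out assumes that the lone library varies like the other groups.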
